A study of Mus musculus with 14 samples.

Results

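Natural killer (NK) cells and cytotoxic T cells carry C-type lectin receptors encoded by Klr genes and kill through granules filled with granzymes and perforin. The genes described here were all those on the array whose single platform symbol began with Klr or Gzm, pseudogenes left out, together with Prf1, Nkg7, Ncr1, Ctsw, Eomes, Tbx21, Cd244a, Il18rap and Il12rb2. This gave 39 of the 22180 genes measured, each with 1 probe set. They comprised 21 Klr genes, 9 granzyme genes, 3 other granule genes, 4 further receptors and 2 transcription factors. Another 5 probe sets of Klr or Gzm genes carried several symbols and were not counted.

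The mice were 12-week-old males given a Western diet during their last 4 weeks, from the age of 8 weeks. The double-deficient group lacked apolipoprotein E and the lymphotoxin beta receptor (ApoE/LTbR-double deficient, called KO in the sample titles). Its littermate controls were ApoE deficient (called WT in the titles), so every animal lacked ApoE. Aorta with the fat around it came from 4 double-deficient and 4 ApoE-deficient samples, and CD115+ blood cells, selected with magnetic beads against the receptor of monocytes for macrophage colony-stimulating factor, from 3 double-deficient and 3 ApoE-deficient preparations. Pools of 2 littermates made up replicates 3 and 4 of the ApoE-deficient CD115+ preparations. Values were read as log2 signals, from which the probe set's own median within the tissue had been taken away. Levels therefore cannot be compared between genes or between tissues, and neither a gene close to background nor the labelled cell type can be checked against absolute levels. All differences are double-deficient minus ApoE-deficient. The number of arrays limits the precision.

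Most Klr genes sit together in one cluster, the natural killer complex, which in the mouse lies on the chromosome that also carries Ltbr. Klrd1 encodes CD94, which pairs with the NKG2 proteins encoded by Klrc genes, and the mouse pairs read the non-classical class I molecule Qa-1. Klrk1 encodes NKG2D, which recognises ligands displayed by stressed cells. The Klra genes encode the Ly49 receptors of class I molecules, and Klrb1 genes encode the NKR-P1 receptors, of which Klrb1c is the NK1.1 antigen. Within the granule, perforin opens a pore in the target membrane and granzymes are the proteases that pass through. T-bet (Tbx21) and eomesodermin (Eomes) are the T-box factors that direct NK and cytotoxic T cell development.

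Promoter sequences from RefSeq (GRCm38.p6, from 250 bases before to 50 bases after each gene's start) matched 34 of the 39 genes. They are shown for how alike neighbouring genes can be and for where a T-box core motif occurs, and neither was related to the array values. Klrc2 and Klrc3, the genes of NKG2C and NKG2E, are near copies, and their promoter windows aligned with 75.1% identity, end gaps counted, where the median over 561 pairs of these genes was 49.2%. The last 120 bases before each start are given 5′ to 3′ on the gene's strand, Klrc2 from chr6:129660597-129660716 and Klrc3 from chr6:129643289-129643408, both on the minus strand. Capitals mark bases with no match in the other gene's window, 3 of 120 for Klrc2 and 2 of 120 for Klrc3, and the Klrc3 start lies 40 bases further along the shared sequence.
Klrc2: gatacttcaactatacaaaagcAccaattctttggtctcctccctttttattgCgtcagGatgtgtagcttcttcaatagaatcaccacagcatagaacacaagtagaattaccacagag
Klrc3: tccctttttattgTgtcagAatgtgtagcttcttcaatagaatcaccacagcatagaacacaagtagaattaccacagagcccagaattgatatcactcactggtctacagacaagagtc
Among the granzyme genes Gzmc, Gzmd, Gzmf and Gzmg the identity ran from 74.6% (Gzmc and Gzmf) to 84.8% (Gzmf and Gzmg), and Klra5 and Klra6 reached 76.0%. Probe and transcript sequences were not compared, so whether the probe sets tell such genes apart was not tested. The T-box core motif AGGTGTGA, searched on both strands, was found in the promoter window of 1 of the 34 genes (2.94%), against 1.48% of the 27025 genes with a promoter entry. That gene was Nkg7, which encodes a membrane protein of cytotoxic granules, and the 60 bases before its start (chr7:43437078-43437137, plus strand) carry this motif in capitals.
Nkg7: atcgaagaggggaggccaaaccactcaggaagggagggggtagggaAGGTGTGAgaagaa

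The genotype labels were first checked on the deleted gene. In aorta, Ltbr stood at -0.98, -1.10, -1.29 and -0.49 in the double-deficient arrays, against 0.63, 0.49, 0.70 and 0.89 in the ApoE-deficient arrays. In CD115+ cells it stood at -0.07, -0.62 and -0.44 in double-deficient preparations and at 0.55, 0.07 and 0.40 in ApoE-deficient preparations. The groups did not overlap in either tissue, with differences of -1.64 (SE 0.17, adjusted p = 0.0679) and -0.72 (SE 0.18, adjusted p = 0.976) in limma's fit over all genes. Array medians lay between -0.0077 and 0.0052 in all 14 arrays.

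The first comparison asked how the cytotoxic genes differed in the aorta when the receptor was missing. None of the 39 passed the threshold (adjusted p under 0.05 over all genes in limma), where 1 of 22180 genes passed as lower (0.00451%) and 0 as higher (0.00%). The difference was negative for 30 of 39 genes (76.9%), against 47.2% of all genes, and its median was -0.10 against 0.01 over all genes. At an unadjusted p under 0.05, 6 of the 39 (15.4%) were lower, against 3.81% of all genes, and 0 were higher, against 3.91%. These 6 were Klrd1, Klre1, Nkg7, Klrc2, Klrc1 and Gzma. For 4 genes (10.3%) every double-deficient array lay below every ApoE-deficient array, against 2.11% of all genes, and for 0 genes above, against 2.19%. In whole tissue, fewer cells of a type and less RNA per cell cannot be told apart.

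The largest differences were in the CD94 group. Klrd1, the shared chain, stood at 0.10, -0.33, -0.53 and -0.26 in double-deficient aortas, against 2.29, 2.37, -0.10 and 1.95 in ApoE-deficient aortas. Thus 3 ApoE-deficient arrays were high, and the other, replicate 3, lay within the double-deficient range. The means were -0.26 ± 0.27 in double-deficient aortas and 1.63 ± 1.17 in ApoE-deficient aortas (SD, n = 4 each), a 3.70-fold lower signal in double-deficient aortas (log2 difference -1.89, SE 0.53, adjusted p = 0.467, limma). Without ApoE-deficient replicate 3 the difference was -2.46 and Klrd1 passed the threshold (adjusted p = 0.00577, limma). In the other fits tried its adjusted p ran from 0.213 to 0.754.

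Klrc1, the gene of the inhibitory partner NKG2A, had -0.27, -0.29, -0.19 and 0.05 in double-deficient aortas and 0.42, 2.08, -0.05 and 0.69 in ApoE-deficient aortas. Replicate 2 of the ApoE-deficient group stood highest and replicate 3 was again within the double-deficient range (difference -0.96, SE 0.41). Without ApoE-deficient replicate 2 the Klrc1 difference was -0.53. Klrc2 had -0.06, -0.03, -0.02 and -0.00 in double-deficient aortas and 0.31, 0.13, 0.35 and 0.00 in ApoE-deficient aortas. These groups did not overlap, though replicate 4 of both rounded to 0, and the difference was small (-0.23, SE 0.09). The near copy Klrc3 differed by 0.01 (SE 0.06), and its 8 arrays spanned only 0.12. For Klrk1, the values were 0.07, -0.66, -0.07 and -0.75 in double-deficient aortas and 1.09, 0.07, -0.63 and 0.42 in ApoE-deficient aortas (difference -0.59, SE 0.36). The groups overlapped, and without ApoE-deficient replicate 1, the highest array, the Klrk1 difference was -0.30.

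Among the other lectins, Klre1 separated the groups. Klre1, whose product pairs with those of Klri1 or Klri2 in NK cells, had -0.13, -0.26, -0.13 and -0.11 in double-deficient aortas and 0.47, 0.97, 0.11 and 0.24 in ApoE-deficient aortas (difference -0.60, SE 0.18, adjusted p = 0.48, limma). Its partners Klri1 and Klri2 differed by -0.10 (SE 0.20) and -0.24 (SE 0.18), with overlapping groups. Klrg1, an inhibitory receptor for cadherins, had -0.17, -0.07, -0.20 and 0.16 in double-deficient aortas and 0.64, 0.20, 0.06 and -0.06 in ApoE-deficient aortas (difference -0.28, SE 0.16). The groups overlapped at double-deficient replicate 4, and the Klrg1 difference was -0.14 without ApoE-deficient replicate 1. Klrh1 differed by 0.01 (SE 0.07) and Klrg2 by 0.06 (SE 0.16).

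All 4 NKR-P1 genes had a negative difference, from -0.64 to -0.00, and overlapping groups. Klrb1b, which encodes an inhibitory member, had -0.07, -0.04, -0.31 and 0.10 in double-deficient aortas, against 0.04, 1.52, -0.12 and 0.78 in ApoE-deficient aortas, where 2 arrays stood out. Klrb1c, the NK1.1 gene, varied little: it averaged -0.07 ± 0.08 in double-deficient aortas and 0.08 ± 0.08 in ApoE-deficient aortas (SD, n = 4 each), a difference of -0.15 (SE 0.07). The 6 Ly49 genes had a median difference of -0.02 and ran from -0.10 (Klra6) to 0.08 (Klra17).

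**Figure D1:**
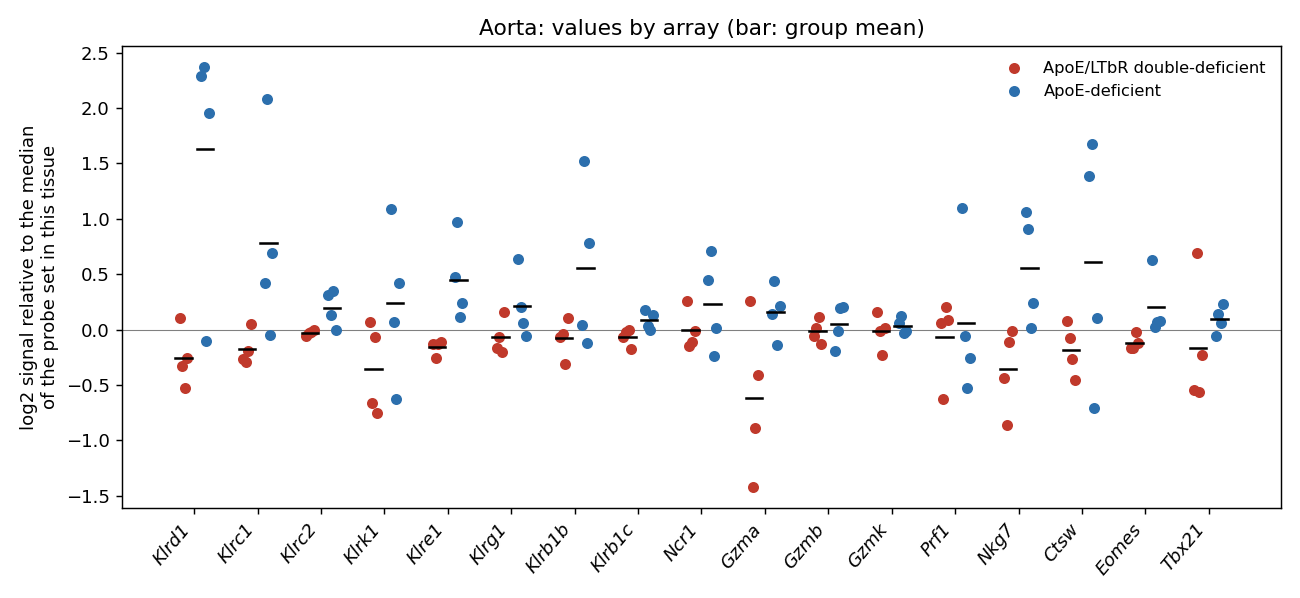
Values of 17 of the 39 genes in the aorta. The vertical axis is the log2 signal relative to the median of the probe set over the 8 aorta arrays, each point is 1 array (red, double-deficient; blue, ApoE-deficient; 4 each) and each bar is a group mean. For Klrd1, 3 ApoE-deficient arrays lie between 1.95 and 2.37 and all other arrays at or below 0.10.

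The remaining receptors had smaller differences. Ncr1, which encodes the NK receptor NKp46, stood at 0.26, -0.15, -0.11 and -0.01 in double-deficient aortas and at 0.45, 0.71, -0.24 and 0.01 in ApoE-deficient aortas. Its difference of -0.23 (SE 0.21) was about the size of its error. Cd244a, the gene of the CD48 receptor 2B4, had 0.53, -0.12, -0.05 and 0.22 in double-deficient aortas and 0.05, 0.09, -0.21 and -0.37 in ApoE-deficient aortas. The groups overlapped, and its difference of 0.25 (SE 0.17) was the highest of the 39. The cytokine receptor chains Il18rap and Il12rb2, for interleukin 18 and interleukin 12, differed by -0.16 (SE 0.09) and 0.05 (SE 0.10).

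Granule genes split into those that varied between aortas and those that hardly did. Nkg7 had -0.44, -0.86, -0.11 and -0.01 in double-deficient aortas and 1.06, 0.91, 0.01 and 0.24 in ApoE-deficient aortas. The groups did not overlap, though the values of double-deficient replicate 4 and ApoE-deficient replicate 3 were close. The means were -0.36 ± 0.38 in double-deficient aortas and 0.56 ± 0.51 in ApoE-deficient aortas (SD, n = 4 each), a 1.88-fold lower signal in double-deficient aortas (log2 difference -0.91, SE 0.28, adjusted p = 0.517, limma). Gzma, a tryptase, had 0.26, -1.42, -0.89 and -0.41 in double-deficient aortas and 0.14, 0.44, -0.14 and 0.21 in ApoE-deficient aortas. Here 3 double-deficient arrays were low and double-deficient replicate 1 lay among the ApoE-deficient arrays (difference -0.78, SE 0.33). Without double-deficient replicate 2, the lowest array, the Gzma difference was -0.51. Ctsw, a cathepsin of cytotoxic lymphocytes, had 0.08, -0.08, -0.27 and -0.46 in double-deficient aortas and 1.39, 1.67, -0.71 and 0.10 in ApoE-deficient aortas. The ApoE-deficient group spanned all the double-deficient values (difference -0.80, SE 0.50). The Ctsw difference was -0.53 without ApoE-deficient replicate 1, -0.44 without replicate 2 and -1.24 without replicate 3 of that group.

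Perforin and most granzymes had small differences. Prf1 had 0.06, -0.63, 0.20 and 0.09 in double-deficient aortas, against 1.10, -0.06, -0.53 and -0.26 in ApoE-deficient aortas, where replicate 1 alone was high. Its difference was -0.13 (SE 0.36) and turned to 0.22 without ApoE-deficient replicate 1 and to 0.06 without double-deficient replicate 2. Gzmb, the aspartate-specific granzyme, averaged -0.02 ± 0.10 in double-deficient and 0.05 ± 0.19 in ApoE-deficient aortas (SD, n = 4 each; difference -0.06, SE 0.10). Gzmk, another tryptase, differed by -0.05 (SE 0.09) and Gzmm by -0.23 (SE 0.16). The mouse granzymes Gzmc, Gzmd, Gzmf, Gzmg and Gzmn differed by -0.03 to 0.13, and the 8 arrays spanned only 0.11 for Gzmd and 0.16 for Gzmg.

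Of the 2 T-box factors, Eomes had -0.17, -0.17, -0.02 and -0.12 in double-deficient aortas and 0.63, 0.02, 0.07 and 0.08 in ApoE-deficient aortas. The groups did not overlap, and the difference of -0.32 (SE 0.14) was -0.18 without ApoE-deficient replicate 1. Tbx21 had -0.55, 0.69, -0.56 and -0.23 in double-deficient aortas and -0.06, 0.14, 0.06 and 0.23 in ApoE-deficient aortas (difference -0.25, SE 0.27), with the highest value in a double-deficient array.

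The genes were not alike in how much they varied at all. The range over the 8 aorta arrays exceeded 1 for 10 of the 39 genes (25.6%, against 20.5% of all genes) and stayed under 0.5 for 17 (43.6%, against 42.3%). Of the 10 wide-ranging genes, all had a negative difference, and 5 were among the 6 with an unadjusted p under 0.05. Array by array, the highest value lay in ApoE-deficient replicate 1 for 13 genes (33.3%, against 13.6% of all genes) and in ApoE-deficient replicate 2 for 11 (28.2%, against 11.9%). These arrays also had the widest spread over all probe sets, with SDs of 0.367 and 0.464, against 0.267 to 0.352 in the other aortas. Values above 1 occurred for 5 genes in ApoE-deficient replicate 1 (12.8%, against 1.42% of all genes), for 4 in replicate 2 (10.3%, against 2.18%), for 1 in replicate 4 and for 0 in replicate 3 or in any double-deficient array. Without ApoE-deficient replicate 3, 9 of 39 genes were lower at an unadjusted p under 0.05, against 5.16% of all genes. Without double-deficient replicate 3 there were 3, against 3.13% of all genes.

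Markers of other lymphocytes were high in the same aortas. The mean over 9 T cell markers was -0.11, -0.32, -0.75 and -0.88 in double-deficient aortas, against 1.04, 1.08, -0.02 and 0.73 in ApoE-deficient aortas. The mean over 7 B cell markers was -0.38, -0.53, -0.16 and -0.24 in double-deficient aortas, against 1.97, 2.10, -0.14 and 1.14 in ApoE-deficient aortas. ApoE-deficient replicate 3 was the lowest of its group in both lists. For the 39 genes the mean was 0.03, -0.14, -0.10 and -0.07 in double-deficient aortas and 0.32, 0.29, -0.03 and 0.12 in ApoE-deficient aortas. T cell markers had a negative difference for 9 of 9 genes with a median of -1.06, and B cell markers for 7 of 7 with a median of -1.70. Cd8a, the co-receptor of cytotoxic T cells, which share many of the granule genes with NK cells, differed by -1.86 (SE 0.28), and Cd4, the co-receptor of helper T cells, by -1.24 (SE 0.18), both with groups that did not overlap. For Cd8b1, the other CD8 gene, the groups overlapped (difference -1.38, SE 0.53). Plasma cell markers were negative for 5 of 5 genes (median -0.58) and neutrophil markers for 6 of 6 (median -0.34), against 47.2% of all genes. Smooth muscle and endothelial markers went the other way, positive for 4 of 4 genes (median 0.30) and 3 of 3 (median 0.11). None of these markers is at a known absolute level, and their part in the differences of the 39 genes was not tested. The marker genes, Cd4 included, were not split by position relative to Ltbr. Mast cells also make granule proteases, and their 8 markers had a median difference of 0.06, with list means between -0.15 and 0.08 in all aortas.

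**Figure D2:**
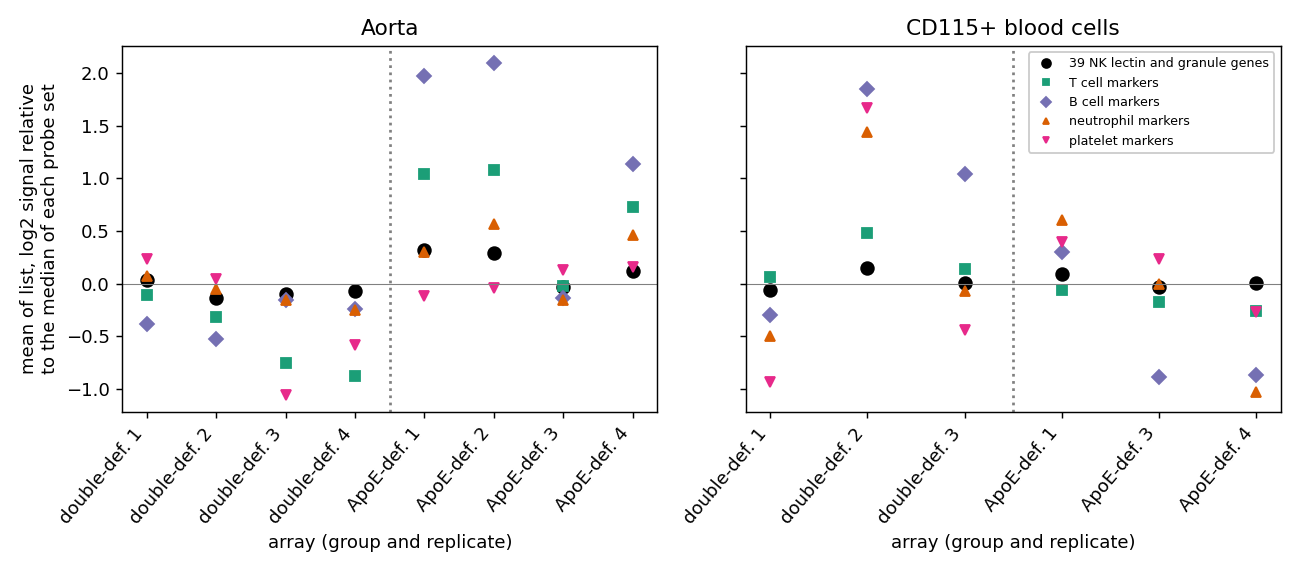
Mean log2 signal, centred per probe set and tissue, of the 39 genes and of 4 marker lists (T cell, B cell, neutrophil and platelet) in each array. Double-deficient arrays stand left of the dotted line and ApoE-deficient arrays right of it. In aorta, T and B cell markers are at 0.73 or more in ApoE-deficient replicates 1, 2 and 4 and below 0 in replicate 3. In blood, double-deficient replicate 2 is the highest array for all 5 lists.

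Genes that act with these receptors and granules were described next. Of 66 measured partner genes (signalling adaptors, cytokines and their receptors, transcription factors, granule machinery, ligands and surface proteins), 53 had a negative difference in aorta (80.3%, against 47.2% of all genes), with a median of -0.25. At an unadjusted p under 0.05, 17 of 66 were lower (25.8%, against 3.81% of all genes) and 0 higher (against 3.91%), and 0 passed the adjusted threshold. The list was chosen with earlier results of these data known, and it shares Lat with the T cell markers, so these shares describe the list only. Of the adaptors and signalling genes, 11 of 11 were negative and 7 lower at an unadjusted p under 0.05 (63.6%, against 3.81% of all genes), and their difference from the other partner genes was not tested. Hcst, the DAP10 adaptor through which NKG2D signals, stood at -0.79, -2.08, -1.22 and 0.14 in double-deficient aortas and at 1.52, 0.88, -0.14 and 0.82 in ApoE-deficient aortas (difference -1.76, SE 0.50). Ptpn6, the SHP-1 phosphatase recruited by inhibitory receptors, differed by -1.10 (SE 0.30) and Sh2d2a, a T cell adaptor, by -0.44 (SE 0.11), both with groups that did not overlap. Vav1, an exchange factor downstream of antigen and NK receptors, differed by -1.09 (SE 0.33), Il18 by -1.28 (SE 0.40) and the lymphoid factor Ikzf3 by -1.54 (SE 0.49). In all 6 of these genes, ApoE-deficient replicate 3 was the lowest of its group. Genes of granule loading and release had a median of -0.06 over 9 genes. Several partner genes are also used by T cells, B cells or myeloid cells. The partner genes, Ptpn6 included, were also not split by position relative to Ltbr.

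The second comparison set the same genes against genotype in CD115+ blood cells, a preparation meant to hold monocytes. No direction prevailed: 19 of 39 genes had a negative difference (48.7%, against 55.3% of all genes), and the median was 0.00 against -0.01. None of the 39 passed the adjusted threshold, as for all 22180 genes (0.00% lower and 0.00% higher). At an unadjusted p under 0.05, limma gave 0 of the 39 as lower (2.33% of all genes) and 1 as higher (2.06% of all genes). The groups did not overlap for 3 lower genes (7.69%, against 5.23% of all genes) and 2 higher genes (5.13%, against 3.93%). Shares of this size are close to those of all genes.

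The gene with the smallest p was Gzmk, with 0.02, 0.12 and 0.19 in double-deficient preparations and -0.02, -0.11 and -0.02 in ApoE-deficient preparations (difference 0.16, SE 0.06, adjusted p = 0.976, limma). The groups did not overlap, but all 6 arrays lay within 0.30. Klra17 encodes Ly49Q, a Ly49 receptor that in the mouse is found on myeloid and plasmacytoid dendritic cells rather than NK cells. It had -0.03, 0.71 and 0.72 in double-deficient preparations and 0.03, -0.06 and -0.05 in ApoE-deficient preparations (difference 0.50, SE 0.21). Thus 2 double-deficient preparations were high and the third lay among the ApoE-deficient ones. B cell markers had means of -0.30, 1.85 and 1.04 in the same double-deficient preparations and 0.30, -0.89 and -0.87 in the ApoE-deficient ones, so that double-deficient replicates 2 and 3 were highest in both. Their part in the Klra17 values was not tested.

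Klrb1f, Klrc3 and Gzmn were lower in every double-deficient preparation, with differences of -0.30 (SE 0.17), -0.07 (SE 0.04) and -0.11 (SE 0.06). For Klrb1f the values were -0.07, -0.01 and -0.14 in double-deficient preparations and 0.62, 0.01 and 0.04 in ApoE-deficient preparations, and without ApoE-deficient replicate 1 the difference was -0.10. Gzmd was higher in every double-deficient preparation, with a difference of 0.07 (SE 0.04), and its arrays spanned 0.10. Klrb1 had -0.00, 0.39 and 0.07 in double-deficient preparations, against -0.09, -0.09 and 0.00 in ApoE-deficient ones (difference 0.21, SE 0.11). Klrk1 differed by -0.11 (SE 0.06).

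Genes that varied most in blood did so between preparations of the same genotype. Klrd1 had -0.87, 0.78 and -0.21 in double-deficient preparations and 0.54, 0.21 and -0.40 in ApoE-deficient preparations (difference -0.21, SE 0.46). Nkg7 had 0.06, 0.71 and -0.07 in double-deficient preparations, against 0.58, -0.54 and -0.06 in ApoE-deficient preparations. Gzma showed the same order, with 0.05, 0.69 and -0.07 in double-deficient preparations, against 0.63, -0.21 and -0.05 in ApoE-deficient ones. For all 3 genes double-deficient replicate 2 and ApoE-deficient replicate 1 were the highest arrays. Il18rap, at -0.07, 1.04 and 0.02 in double-deficient preparations, against 0.01, -0.01 and -0.15 in ApoE-deficient ones, was high in double-deficient replicate 2 alone. Cd244a ran from -0.49 to 0.81 in double-deficient preparations and from -0.05 to 0.26 in ApoE-deficient preparations.

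**Figure D3:**
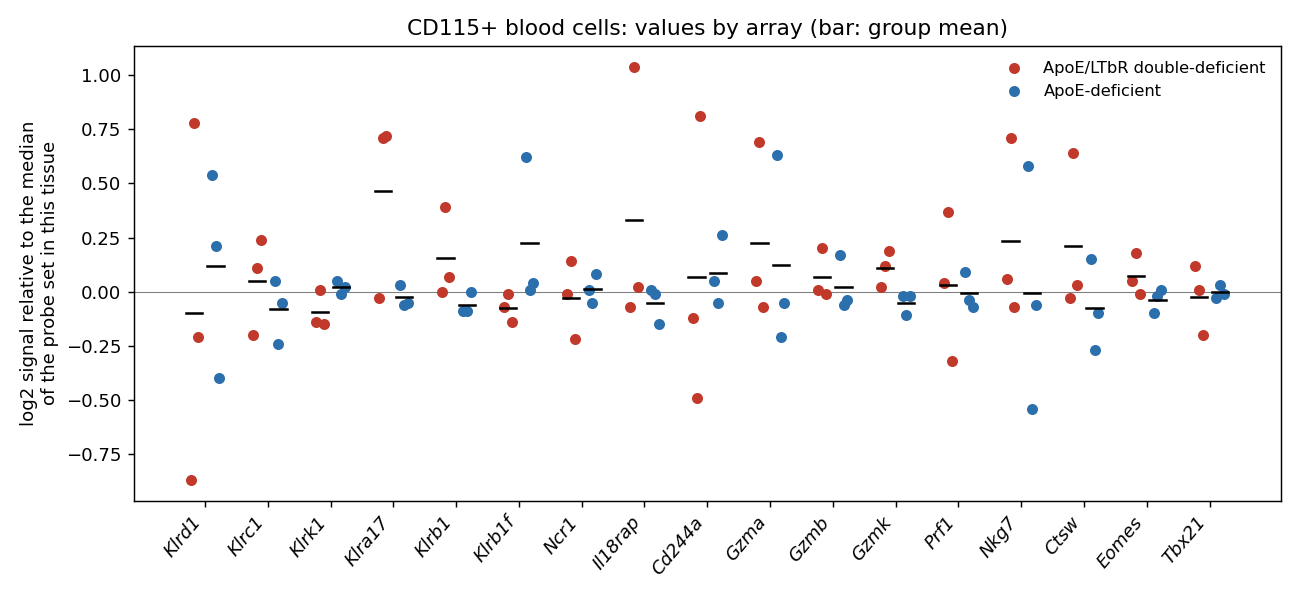
Values of 17 of the 39 genes in CD115+ blood cells. The vertical axis is the log2 signal relative to the median of the probe set over the 6 CD115+ arrays, each point is 1 preparation (red, double-deficient; blue, ApoE-deficient; 3 each) and each bar is a group mean. The Klrd1 points of double-deficient preparations run from -0.87 to 0.78 and enclose those of ApoE-deficient preparations.

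Double-deficient replicate 2 held the highest value for 11 of the 39 genes (28.2%, against 15.3% of all genes). In that preparation the neutrophil and platelet marker means were 1.44 and 1.67, against -0.50 and -0.93 in replicate 1 and -0.07 and -0.44 in replicate 3 of the same genotype. Across ApoE-deficient preparations the neutrophil means were 0.60, 0.00 and -1.03 and the platelet means 0.40, 0.23 and -0.27. Monocyte marker means were -0.80, -0.06 and 0.58 in double-deficient preparations and 0.31, -0.16 and 0.07 in ApoE-deficient ones. The part of these and other cell types in the 39 genes was not tested. Without double-deficient replicate 2, 3 genes were lower at an unadjusted p under 0.05 (1.52% of all genes) and 0 were called. Prf1 differed by 0.04 (SE 0.17), Gzmb by 0.04 (SE 0.09), Ncr1 by -0.04 (SE 0.10), Klrb1c by -0.06 (SE 0.06) and Klrg1 by -0.07 (SE 0.10). Klrc1, Ctsw, Eomes, Tbx21 and Il12rb2 differed by 0.13 (SE 0.14), 0.29 (SE 0.21), 0.11 (SE 0.07), -0.02 (SE 0.09) and -0.04 (SE 0.28). For Ctsw, double-deficient replicate 2 was again the highest array, at 0.64. Il12rb2 had -0.47, -0.09 and 0.47 in double-deficient preparations and 0.28, -0.35 and 0.09 in ApoE-deficient preparations, as wide a spread in one genotype as in both. The range over the 6 arrays stayed under 0.5 for 26 of the 39 genes (66.7%, against 74.5% of all genes).

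Of the 66 partner genes, 47 had a positive difference in CD115+ cells (71.2%, against 44.7% of all genes), with a median of 0.09. At an unadjusted p under 0.05, 2 were higher (3.03%, against 2.06% of all genes) and 1 lower (1.52%, against 2.33%), shares near those of all genes, and 0 passed the adjusted threshold. The Tec-family kinase gene Txk and the adaptor gene Lat differed by 0.44 (SE 0.13) and 0.65 (SE 0.22). Prdm1, the gene of the repressor Blimp-1, differed by -0.32 (SE 0.08). The interleukin 21 receptor gene Il21r, the interleukin 12 subunit gene Il12a and Ctsc, the cathepsin that activates granzymes, differed by 0.53 (SE 0.24), 0.63 (SE 0.29) and -0.28 (SE 0.14). T cell markers were positive for 9 of 9 genes (median 0.36), B cell markers for 7 of 7 (median 1.44) and neutrophil markers for 6 of 6 (median 0.36), against 44.7% of all genes. Smooth muscle and adipocyte markers were negative for 4 of 4 genes each (medians -0.18 and -0.17).

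Whether the genotype difference itself differed between aorta and blood was tested in 1 fit of all 14 arrays. None of the 39 genes passed the adjusted threshold, nor did any of the 22180 genes (0.00% in either direction). At an unadjusted p under 0.05, 5 of the 39 had a lower difference in aorta than in CD115+ cells (12.8%, against 3.49% of all genes) and 0 a higher one (3.41% of all genes). Over all 39, 26 differences were lower in aorta (66.7%, against 45.3% of all genes). The smallest p values were those of Klre1, Klrc2 and Nkg7. Klre1 differed by -0.60 in aorta and 0.06 in CD115+ cells, a gap of -0.67 (SE 0.24, adjusted p = 0.644, limma). Klrc2 differed by -0.23 in aorta and 0.06 in CD115+ cells (gap -0.29, SE 0.11), and Nkg7 by -0.91 in aorta and 0.24 in CD115+ cells (gap -1.15, SE 0.47). For Klrd1 the gap was -1.67 (SE 0.78).

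**Figure D4:**
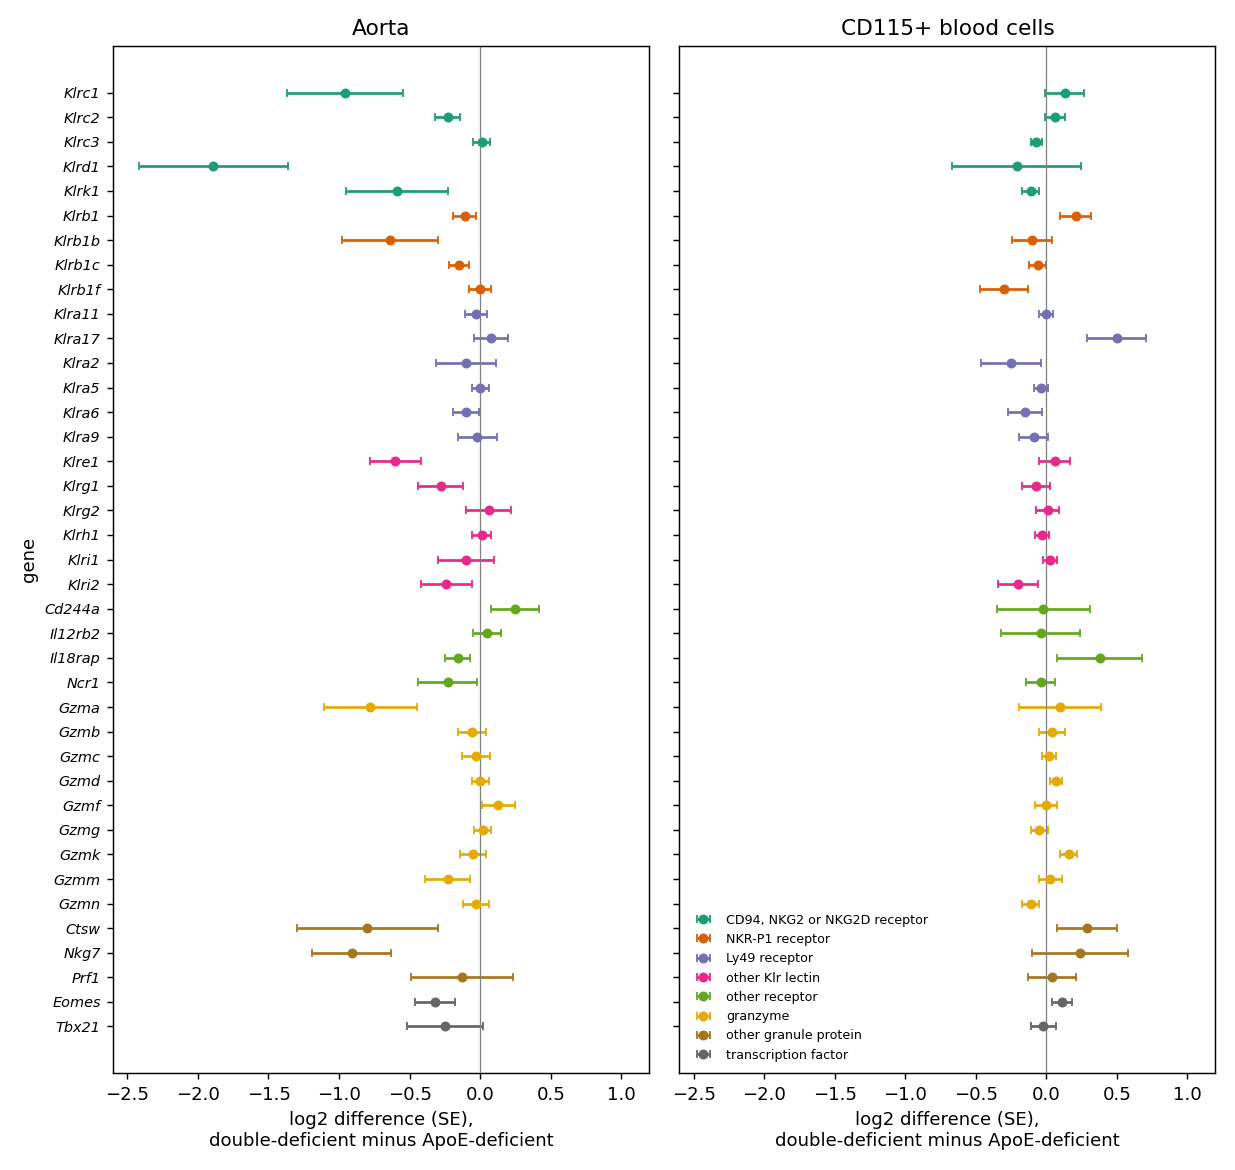
Log2 difference, double-deficient minus ApoE-deficient, of all 39 genes in aorta (left) and CD115+ blood cells (right), grouped by role. Points are limma estimates and bars are their SE. In aorta 30 of 39 points lie below 0, with Klrd1 lowest at -1.89, and in CD115+ cells 19 of 39 lie below 0.

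Because Ltbr and the natural killer complex share chromosome 6, the genes were also split by position. In the GRCm38.p6 gene order, 19 of the 39 had fewer than 300 genes between them and Ltbr, the closest with 95 and the farthest with 180 in between. Another 19 lay further away or on other chromosomes, and Klra11 was not placed. In aorta the difference was negative for 15 of 19 near genes (median -0.11) and for 14 of 19 others (median -0.06). Of the near genes 4 were lower at an unadjusted p under 0.05 (21.1%, against 3.81% of all genes), and of the others 2 (10.5%). The 281 near genes outside this group had 144 negative differences and a median of 0.00, with 15 lower (5.34%) and 9 higher (3.20%) at an unadjusted p under 0.05, near the 3.81% and 3.91% of all genes. In CD115+ cells the difference was negative for 13 of 19 near genes (median -0.07) and for 6 of 19 others (median 0.03). There, 0 near genes and 1 of the others had an unadjusted p under 0.05, against 4.39% of all genes. The gap between near and other genes was not tested. For the near genes, the loss of the receptor and the chromosome segment inherited with the Ltbr allele cannot be told apart in this design. Marker and partner genes, such as Cd4 and Ptpn6, were not split in this way. The same limit holds for any of them near Ltbr.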

How the data were processed

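The authors deposited 1 table of log2 values for 33793 probe sets on 14 arrays. Per the labels' protocols, 1 ng of RNA per sample was converted to cDNA, amplified and biotin-labelled. The array normalization and the log base are not stated by the sources used here; the values were read as log2. In each tissue every probe set had a median of 0 within 1e-06, so the deposited values had been centred. No level filter was possible, and all 39 genes were tested.

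Probe sets with 1 platform symbol (23521) were averaged per gene. Each tissue was fitted with limma 3.58.1 in R 4.3.3 (lmFit, eBayes) on 22180 genes, two-sided, with Benjamini-Hochberg adjustment over all genes, and the difference between tissues in 1 fit of the 4 group means. The scripts were tested on simulated data. The p-values measure the spread between samples, which the labels do not tie to single animals throughout.

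The genes and lists were chosen with earlier results of these data known. Genes named with values were Ltbr, the 8 of smallest p per tissue, those whose groups did not overlap, 17 fixed genes, 3 for the difference between tissues, 6 partner genes per tissue and up to 2 genes of a marker list. Other members with values, such as Klrb1b, were picked after their values were seen. Alternatives were another probe set rule, normalizations, robust eBayes, array weights, a replicate block, a joint fit, a filter on SD, and leaving out arrays or genes. Same-numbered samples did not deviate together (correlations -0.15 to 0.17 in aorta, -0.47 and -0.29 in blood), so the numbers were not treated as pairs.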

Additional observations from a re-analysis of the deposited data

Results flagged for a closer look

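In aorta, groups of 4 arrays allow a check for 1 value far from the other 3 (Dixon's test at the 95% level). Of 78 such groups (39 genes in 2 genotypes) 8 were marked, where chance marks about 1 in 20 for independent, normally distributed values. The check was not run over all genes, and these genes share arrays, so no excess is read from this count. Among double-deficient arrays, replicate 1 was high for Klra9 (0.49, next -0.05) and Gzmf (0.43, next 0.01), and replicate 2 was low for Klre1 (-0.26, next -0.13) and Prf1 (-0.63, next 0.06). Among ApoE-deficient arrays, replicate 3 was low for Klrd1 (-0.10, next 1.95), replicate 1 high for Eomes (0.63, next 0.08), replicate 2 high for Klra11 (0.24, next -0.01) and replicate 4 high for Il18rap (0.18, next 0.02). The groups of 3 CD115+ preparations are too small for this check.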

How the results depend on the processing

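No gene of the 39 passed the adjusted threshold in any fit of either tissue except Klrd1 in aorta without ApoE-deficient replicate 3 (-2.46). The number of genes called in aorta (1) was 0 with the probe set of largest SD, robust eBayes and array weights, 19 in the fit of 4 groups, 4 with the genes of smallest SD left out, and 0 to 74 without 1 array, with 74 without ApoE-deficient replicate 3. For the difference between tissues (0) it was 0 to 58 without 1 array, with 58 without CD115+ double-deficient replicate 1 and 30 without aorta ApoE-deficient replicate 3. Ltbr in aorta passed in the fit of 4 groups (-1.64), with the filter on SD (-1.64) and without double-deficient replicate 4 (-1.80) or ApoE-deficient replicate 3 (-1.63), and leaving out 1 array gave -1.80 to -1.53. The median difference of the 39 genes in aorta was -0.06 without genes near Ltbr (15 of 20 negative), -0.15 without Klra genes, and -0.15 to -0.08 without 1 array. In CD115+ cells it was 0.02 without genes near Ltbr (6 of 20 negative) and -0.02 to 0.02 without 1 array. It was -0.02 without both pooled preparations, which left 1 ApoE-deficient array. The replicate block gave -0.03 there, with only replicates 1 and 3 present in both genotypes. At an unadjusted p under 0.05 the replicate block left 3 of the 39 genes lower in aorta, against 4.02% of all genes. In CD115+ cells it left 0 lower, against 0.712% of all genes.

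Directions in CD115+ cells were unstable for several genes, none of them called. Only replicates 1 and 3 occurred in both genotypes there, so the replicate block compared those preparations alone. With that block the sign turned for Cd244a (0.35), Gzma (-0.22), Gzmb (-0.06), Il12rb2 (0.03), Il18rap (-0.02), Nkg7 (-0.02) and Prf1 (-0.16). Leaving out both pooled preparations left ApoE-deficient replicate 1 as the only control array. Against that array the sign turned for Cd244a (0.02), Gzma (-0.41), Gzmb (-0.10), Nkg7 (-0.35), Prf1 (-0.05) and Tbx21 (0.01). With array weights it turned for Cd244a (0.00), Il12rb2 (0.07) and Klrd1 (0.03), and with quantile normalization for Gzma (-0.05). Without 1 array the ranges that crossed 0 in CD115+ cells were -0.39 to 0.26 for Cd244a, -0.14 to 0.35 for Gzma, -0.02 to 0.11 for Gzmb, -0.29 to 0.18 for Il12rb2, -0.65 to 0.18 for Klrd1, -0.17 to 0.00 for Klrg1, -0.13 to 0.05 for Ncr1, -0.02 to 0.54 for Nkg7, -0.13 to 0.22 for Prf1 and -0.09 to 0.07 for Tbx21. In aorta they were -0.11 to 0.02 for Gzmk, -0.01 to 0.10 for Il12rb2 and -0.33 to 0.22 for Prf1. The cause was not tested.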

Other observations

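The 5 probe sets with several Klr or Gzm symbols, which entered no comparison, had overlapping groups in both tissues. The probe set shared by Klrb1a and Klrb1c stood at -0.10, 0.01, -0.22 and 0.07 in double-deficient aortas and at 0.14, 0.84, -0.01 and -0.07 in ApoE-deficient aortas, with the highest value in ApoE-deficient replicate 2. The probe set shared by 7 Klra symbols stood at -0.01, 0.01, -0.01 and -0.04 in double-deficient aortas and at 0.17, 0.07, -0.03 and 0.37 in ApoE-deficient aortas. In CD115+ cells the same 2 probe sets varied by no more than 0.10 between their highest and lowest preparation.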
